A study of Mus musculus with 12 samples.

Results

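Messenger RNA of the cytokine gene Tnf, of its receptors and of factors that control the decay of such messages was followed in microglial cells given C13 and aggregates of TDP-43. The set held 8 of the 30994 genes counted, picked by symbol and matched to Ensembl identifiers through a GRCm38 annotation. They were Tnf (the ligand), Tnfrsf1a and Tnfrsf1b (its receptors), Adam17 (the protease that sheds it from the cell surface), Zfp36, Zfp36l1 and Zfp36l2 (zinc finger proteins that bind AU-rich RNA) and Elavl1 (another AU-rich RNA-binding protein). All 8 passed the filter on low counts in both nascent and total RNA.

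The cells were SIM-A9, an established line of C57BL/6 mouse microglia, so the results describe 1 cultured line without the other cells of the brain. Microglia are the macrophages of the brain. All 4 groups first received 10 µM polymyxin B, which binds bacterial endotoxin, for 1 h. The groups were C13 with TDP-43 aggregates, DMSO with TDP-43 aggregates, C13 with sham aggregates and DMSO with sham aggregates, with 3 libraries each. C13, named in the title of the series as a MOK kinase inhibitor, was given at 10 µM for 1 h before aggregates were added to 5 µg/mL for 2.5 h. The uridine analogue 4-thiouridine was then present at 100 µM for the last 90 min, and reads that carried its mark were counted as nascent. The question of the series was how C13 alters early transcription in such cells.

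TNF is an inflammatory cytokine that macrophages and microglia make on activation. It is made as a membrane protein, ADAM17 cuts it free, and it signals through TNFR1 (Tnfrsf1a), which is found on most cells and carries a death domain, and TNFR2 (Tnfrsf1b), which is found mainly on immune cells. Its message is short-lived: AU-rich elements in its 3′ untranslated region are bound by tristetraprolin (Zfp36), which recruits deadenylases and so speeds decay, while HuR (Elavl1) binds AU-rich RNA and is best known for stabilizing it. Zfp36l1 and Zfp36l2 encode relatives of tristetraprolin with the same kind of RNA-binding fingers.

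The core of the element that tristetraprolin binds is the heptamer UAUUUAU, which was searched on the RNA strand of annotated 3′ untranslated regions, with overlapping copies counted. Tnf held 8 copies in 764 bases, Zfp36 3 in 774, Zfp36l1 3 in 1835, Zfp36l2 3 in 1822 and Elavl1 8 in 4218. No copy was found in those of Tnfrsf1a, Tnfrsf1b and Adam17. Of 591 genes with a region of 700 to 850 bases, 1 (0.169%), which was Tnf itself, had 8 or more copies, and 7 (1.18%) had 3 or more. Of 844 genes with 1600 to 2000 bases, 30 (3.55%) had 3 or more, and of 351 with 3800 to 4600 bases, 1 (0.285%) had 8 or more. The 30 bases of each region with the most copies are shown here, from GENCODE M21 on GRCm38, because these 5 genes hold the heptamer and the receptors and Adam17 do not. Where stretches tied, the first was taken, and those of Zfp36l1 and Zfp36l2 each held 1 of the 3 copies. Capitals mark the heptamers.
Tnf: uUAUUUAUUAUUUAUUUAUUAUUUAUUUAU
Zfp36: ccuuUAUUUAUgacgacuuUAUUUAUugua
Zfp36l1: cuuaucaaaacgUAUUUAUugccaaacuau
Zfp36l2: aacuauuuaacuUAUUUAUuaucuugugaa
Elavl1: uUAUUUAUUUAUUUAUUUAUuuuUAUUUAU

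All 5 genes lie on the minus strand. The Tnf site was at chr17:35199678-35199707, within the gene at chr17:35199381-35202007, and the Zfp36 site at chr7:28376958-28376987, within chr7:28376784-28380253. Those of Zfp36l1, Zfp36l2 and Elavl1 were at chr12:80108422-80108451, chr17:84184914-84184943 and chr8:4285777-4285806. The sites of Tnf and of Elavl1 each held 5 copies, some of them overlapping, and 13 of 10862 genes (0.120%) with a 3′ untranslated region had such a run. The site of Zfp36 held 2, and 287 genes (2.64%) had a run with at least 2, while 28.2% of genes had a 30-base run with at least 1. The Tnf site ended 297 bases before the end of the transcript and that of Zfp36 174 bases before it. A match is a stretch of letters and does not show binding.

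Libraries held 17436397 to 41779882 total reads and 552042 to 2722812 nascent reads. The nascent share of a library was 1.88% to 3.40% in 11 libraries and 7.11% in DMSO with sham replicate 2. DMSO with TDP-43 replicate 3 and C13 with sham replicate 3 stood apart, with 6599 and 7125 genes that had a nascent read, against 7325 to 9393 in the other 10. After scaling by TMM, nascent CPM (counts per 1000000) summed to 1.31 times and 1.56 times the nominal total in those 2 libraries and to 0.891 to 1.03 times in the other 10, so nascent CPM of any gene was raised there relative to its plain share of nascent reads. Of 14 microglial and macrophage markers, 11 exceeded 1 CPM in all libraries and summed to 1271 to 1789 CPM, while C1qa and Tmem119 averaged under 1 CPM. Markers of astrocytes, neurons and fibroblasts summed to at most 1.06, 1.01 and 0.141 CPM. Of 4 oligodendrocyte markers, 1 exceeded 1 CPM in all libraries, which was Mbp, and their sum was 21.0 to 29.4 CPM in C13 with TDP-43, 4.45 to 46.4 in DMSO with TDP-43, 10.1 to 23.5 in C13 with sham and 10.2 to 26.8 in DMSO with sham. Their part in the results was not tested. Mok itself had 0 to 294 total reads in a library, and nascent reads in 1 library.

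Most Tnf reads were nascent. The share of Tnf reads that carried the label averaged 63.2% ± 7.93 (SD, n = 12), against a median of 3.04% over 7046 genes. This placed Tnf 6th, and the 3 genes just above it were mitochondrial tRNA genes, mt-Tm with 67.7%, mt-Ts2 with 67.2% and mt-Ti with 66.98%. The next genes were Nfkbia, which encodes the inhibitor IκBα, with 56.4% ± 6.89 and Gdf15 with 53.8% ± 8.54 (SD, n = 12). Their distance from Tnf was within the SD over libraries or close to it.

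In C13 with TDP-43 the Tnf share was 76.5%, 67.6% and 63.5% in the 3 libraries. It was 66.9%, 59.0% and 64.7% in DMSO with TDP-43, 55.7%, 67.1% and 47.0% in C13 with sham, and 68.9%, 54.5% and 67.4% in DMSO with sham. The 4 groups overlapped. The 95% Clopper-Pearson interval was 44.6% to 49.3% at the lowest share and 74.5% to 78.5% at the highest, which covers counting error only, since reads without molecular identifiers are not independent molecules. Tnf was enriched 7.66-fold to 30.3-fold over the share of its library, and the lowest of these values was in the library with a 7.11% share.

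Zfp36 came next among the members, with a nascent share of 48.2% ± 15.01 (SD, n = 12), 10th of 7046 genes. Its shares were 73.7%, 35.6% and 36.6% in C13 with TDP-43, 32.4%, 51.1% and 41.0% in DMSO with TDP-43, 33.3%, 41.8% and 75.4% in C13 with sham, and 62.5%, 50.8% and 44.4% in DMSO with sham. Zfp36 was thinly covered, with 30 to 360 total reads and 10 to 184 nascent reads in a library. All its counts were even, so intervals were computed on halved counts, and that of the highest share, in C13 with sham replicate 3, was 63.1% to 85.2%. The Tnf share was above that of Zfp36 in 11 of 12 libraries, the exception being this one. Both were above the other 6 genes in all 12 libraries.

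The remaining shares were lower by far. They averaged 10.8% ± 6.80 for Zfp36l2, 7.87% ± 2.52 for Tnfrsf1b, 6.14% ± 3.95 for Zfp36l1, 4.44% ± 3.14 for Tnfrsf1a, 2.45% ± 1.11 for Adam17 and 2.16% ± 2.13 for Elavl1 (SD, n = 12 each). Neighbours among these 6 did not differ beyond their spread. Of all genes, 96.8% had a lower share than Zfp36l2, 93.0% than Tnfrsf1b, 87.7% than Zfp36l1 and 74.8% than Tnfrsf1a, but 32.8% than Adam17 and 23.5% than Elavl1. Between the receptors, Tnfrsf1b had the higher share in 9 of 12 libraries. Tnfrsf1b exceeded Adam17 in all 12 libraries. Nascent reads were few for several of these genes: Tnfrsf1a had 1 to 220 in a library, and Zfp36l1 had 0 of 926 reads in DMSO with TDP-43 replicate 3, which allows a share of up to 0.324% by a limit of 3 counts (the exact Clopper-Pearson bound is 0.398%).

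**Figure D1:**
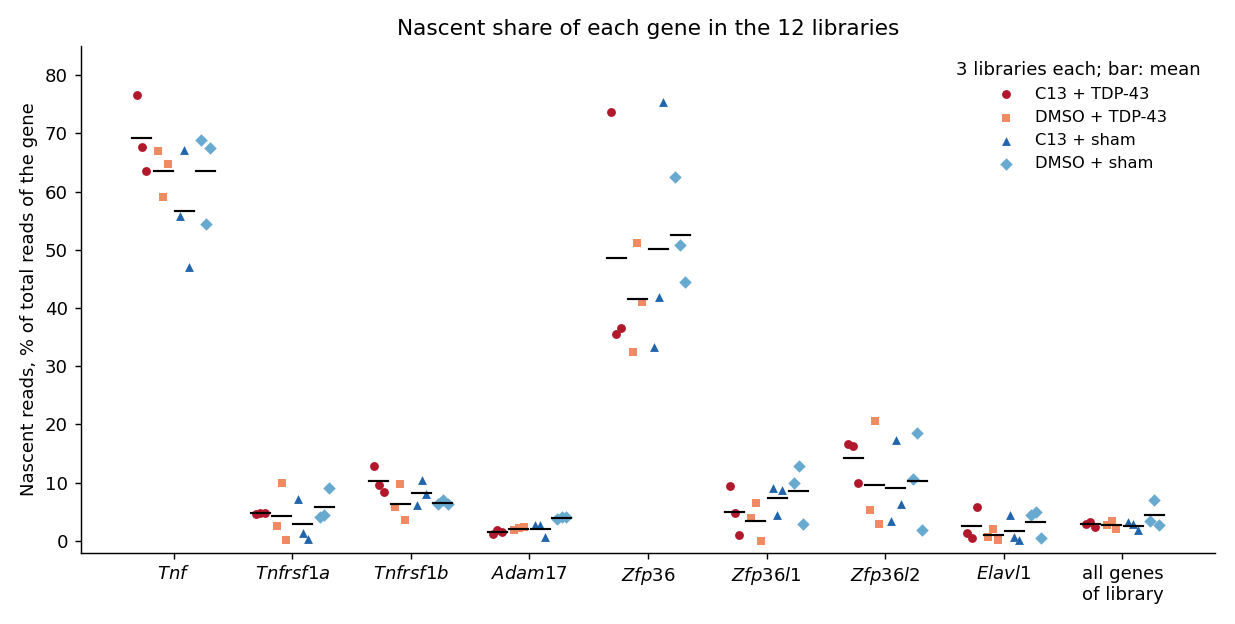
Nascent reads as a percentage of the total reads of each gene (y axis) in 12 libraries, for the 8 genes and for all genes of a library together (x axis). Points are libraries, coloured by group, and bars are means of 3: Tnf (47.0% to 76.5%) and Zfp36 (32.4% to 75.4%) lay above the other 6 genes in all libraries.

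The number of heptamers did not order the members by share. Tnf and Elavl1 both held 8 heptamers, and their mean shares were 63.2% and 2.16%. The 3 Zfp36 family genes held 3 each, and their shares were 48.2%, 10.8% and 6.14%. Over the 6906 genes with a share and an annotated 3′ untranslated region, the median share was 3.36% in the 39 genes with 5 or more heptamers and 2.97% in the 4968 genes with none. Those 39 genes also had longer regions, with a median of 4218 bases against 762 bases. Tnf had the highest share among the 39, followed by the chemokine gene Cxcl2 with 7 heptamers and 22.9%. A read can be marked only where the RNA has a uridine: the last 300 bases of the transcript were 30.3% U in Tnf, 38.0% in Zfp36 and 40.0% in Elavl1, against a median of 30% over genes. It was 24.7% in Tnfrsf1a, 31.0% in Tnfrsf1b, 32.3% in Zfp36l1, 34.7% in Adam17 and 35.0% in Zfp36l2. Whether U content bears on the shares was not tested.

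**Figure D2:**
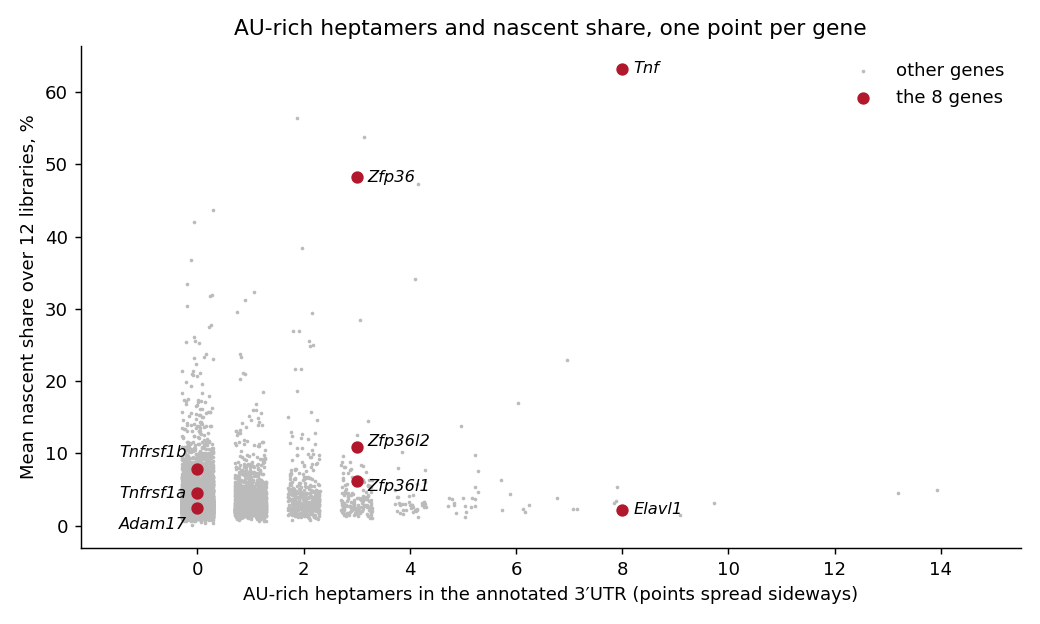
Mean nascent share over 12 libraries (y axis, percent) against the number of UAUUUAU heptamers in the annotated 3′ untranslated region (x axis), 1 point per gene. Red points are the 8 genes: Tnf and Elavl1 share a count of 8 and differ in share (63.2% and 2.16%).

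The next question was whether aggregates or C13 altered these genes. None of the 8 passed the test in any comparison. The edgeR quasi-likelihood test with Benjamini-Hochberg adjustment called 0 of 8 members in each of 7 comparisons of total RNA, where 0 of 11827 genes (0%) were called in each. In nascent RNA it called 0 of 8 members in each of 7 comparisons. It called 0 of 7078 genes (0%) in 6 of these, and 1 gene (0.0141%), which was Mff, in the comparison of aggregates averaged over C13 and DMSO. Nascent reads tested against the other reads of the same libraries gave 0 of 8 members in 6 comparisons, with 0% of genes called in 5 and 0.0141% in the averaged comparison of aggregates, again Mff. Of these 160 member comparisons, 6 had an unadjusted p under 0.05, and DESeq2 also called 0, with 2 at that level in nascent and 5 in total RNA. The comparisons share groups: each group enters both a comparison of C13 and one of aggregates. In cultures measured in bulk, fewer responding cells and less RNA per cell cannot be told apart.

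None of the 4 pairs of groups had all 8 members on one side, in nascent or in total RNA. For C13 against DMSO, 6 of 8 were higher in nascent RNA both with aggregates (median log2 fold change 0.34, against 0.02 over all genes) and with sham (0.77, against -0.04). For aggregates against sham, 3 of 8 were higher in nascent RNA with C13 (median -0.29, against 0.04) and 4 of 8 with DMSO (0.10, against -0.04). In total RNA C13 against DMSO had 5 of 8 higher with aggregates (median 0.16, against -0.00) and 6 of 8 with sham (0.15, against -0.01). Aggregates against sham had 4 of 8 higher in total RNA with C13 (-0.07, against -0.01) and 3 of 8 with DMSO (-0.04, against -0.02).

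Total Tnf was highest in cells that had both C13 and TDP-43 aggregates. It stood at 73.4, 102 and 86.3 CPM in C13 with TDP-43, at 56.5, 73.1 and 60.4 CPM in DMSO with TDP-43, at 38.2, 69.0 and 41.3 CPM in C13 with sham, and at 68.5, 55.8 and 73.4 CPM in DMSO with sham. The mean was 87.1 ± 14.2 CPM in C13 with TDP-43, 63.4 ± 8.68 CPM in DMSO with TDP-43, 49.5 ± 17.0 CPM in C13 with sham and 65.9 ± 9.09 CPM in DMSO with sham (SD, n = 3 each). Every C13 with TDP-43 library lay above every C13 with sham library. It also lay above every DMSO with TDP-43 library, where the nearest values were 73.4 and 73.1 CPM, and it overlapped DMSO with sham.

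For aggregates against sham with C13, Tnf was 1 of 8 members whose total RNA groups did not overlap with the aggregate group higher, as was so for 6.69% of all genes. Its log2 fold change was 0.82 (SE 0.26), and it did not pass (edgeR unadjusted p = 0.0060, adjusted p = 0.486). An unadjusted p under 0.05 was found for 8.84% of genes in this comparison. With DMSO the same comparison gave -0.06 (SE 0.25, edgeR adjusted p = 0.999), and the groups overlapped. The difference between these values, which is the interaction of C13 and aggregates, was 0.87 on the log2 scale (SE 0.36, edgeR unadjusted p = 0.0282, adjusted p = 0.540), where 7.96% of genes had an unadjusted p under 0.05. The effect of aggregates was thus not shown to differ between C13 and DMSO. Averaged over both, aggregates gave 0.38 (SE 0.18, edgeR adjusted p = 0.948).

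For C13 against DMSO, total Tnf was higher with aggregates by 0.46 (log2, SE 0.25, edgeR adjusted p = 0.841) and lower with sham, at -0.41 (log2, SE 0.25, edgeR adjusted p = 0.862). With aggregates the 2 groups did not overlap, and Tnf was the 1 of 8 members that stood higher, against 6.97% of genes. With sham the groups overlapped. The average over both was 0.02 (SE 0.18, edgeR adjusted p = 1.000).

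Tnf reads were then split into nascent and other reads, both as RPM (reads per 1000000 total reads, scaled by TMM of the total table). Nascent Tnf reached 56.2, 68.7 and 54.8 RPM in C13 with TDP-43 and 37.8, 43.2 and 39.1 in DMSO with TDP-43. It reached 21.3, 46.3 and 19.4 RPM in C13 with sham and 47.2, 30.4 and 49.5 in DMSO with sham. On this scale C13 with TDP-43 was above every library of the other 3 groups. How many other genes did the same was not counted. Tnf was the 1 of 8 members higher without overlap both for C13 against DMSO with aggregates, as were 6.03% of genes, and for aggregates against sham with C13, as were 9.72%. The other Tnf reads overlapped in all 4 pairs of groups, at 17.2 to 33.0 RPM in C13 with TDP-43, 18.7 to 29.98 in DMSO with TDP-43, 16.9 to 22.7 in C13 with sham and 21.3 to 25.4 in DMSO with sham.

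**Figure D3:**
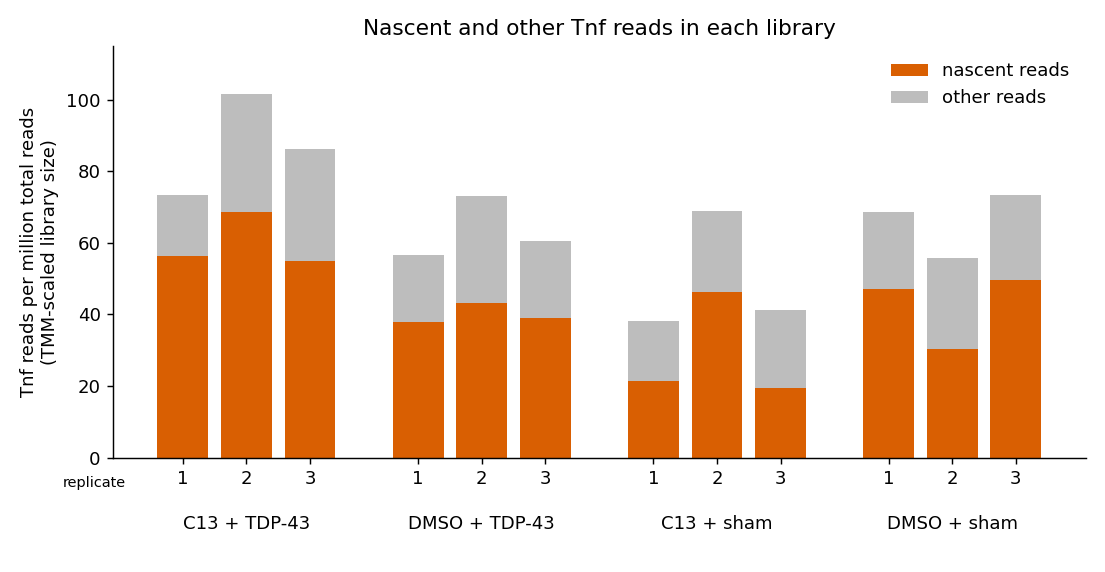
Tnf RPM, reads per 1000000 total reads (y axis), in each library (x axis, by group and replicate), split into nascent (orange) and other (grey) reads. The nascent part was 54.8 to 68.7 RPM in C13 with TDP-43 and 19.4 to 49.5 in the other 9 libraries, while the grey part was 16.9 to 33.0 in all 12. How many other genes showed such a split was not counted.

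Scaled within nascent RNA alone, the same reads gave a wider spread. Nascent Tnf stood at 1709, 1990 and 2285 CPM in C13 with TDP-43, at 1243, 1200 and 2355 CPM in DMSO with TDP-43, at 624, 1626 and 1672 CPM in C13 with sham, and at 1228, 380 and 1762 CPM in DMSO with sham. The highest value came from DMSO with TDP-43 replicate 3, which stood apart as described, and the lowest from DMSO with sham replicate 2, where 7.11% of all reads were nascent. Without DMSO with TDP-43 replicate 3 the log2 fold change for aggregates against sham with DMSO was 0.11, against 0.51 with all libraries, and without DMSO with sham replicate 2 it was 0.06. For C13 against DMSO with sham it was -0.28 without DMSO with sham replicate 2, -0.09 without C13 with sham replicate 3 and -0.06 without C13 with sham replicate 2, against 0.22 with all libraries. For C13 against DMSO with aggregates it was 0.70 without DMSO with TDP-43 replicate 3, against 0.32.

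The nascent log2 fold changes of Tnf were positive in all 4 pairs and none passed. They were 0.61 (SE 0.52) for aggregates against sham with C13 and 0.51 (SE 0.52) with DMSO. For C13 against DMSO they were 0.32 (SE 0.52) with aggregates and 0.22 (SE 0.52) with sham (edgeR adjusted p between 0.790 and 1.000 for all 4). In the comparison of aggregates with C13, Tnf was the 1 of 8 members whose nascent groups did not overlap with aggregates higher, as were 7.87% of genes. The averages were 0.56 (SE 0.37) for aggregates and 0.27 (SE 0.37) for C13, and the interaction was 0.10 (SE 0.74, edgeR adjusted p = 0.993).

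With library sizes taken from total RNA, the comparison of aggregates with C13 was 1.05 on the log2 scale for nascent Tnf (edgeR unadjusted p = 0.0503, adjusted p = 0.732), where the median of all genes moved to 0.35. On that scaling C13 against DMSO with sham gave Tnf -0.55 beside an all-gene median of -1.02, and aggregates against sham with DMSO gave -0.08 beside -0.84, so the direction of Tnf depended on the scaling in these 2 pairs. Nascent against other reads of Tnf gave 0.18 (SE 0.59) with aggregates and 0.57 (SE 0.60) with sham for C13 against DMSO, on the log2 scale. For aggregates against sham it gave 0.34 (SE 0.59) with C13 and 0.73 (SE 0.61) with DMSO. None passed (edgeR adjusted p between 0.952 and 1.000). Without DMSO with sham replicate 2, the values against DMSO with sham were -0.21 for C13 and 0.00025 for aggregates. The averages were 0.37 (SE 0.42) for C13 and 0.54 (SE 0.42) for aggregates.

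Of the receptors, Tnfrsf1b was the one that differed most in nascent RNA. Nascent Tnfrsf1b stood at 219, 234 and 221 CPM in C13 with TDP-43 and at 107, 187 and 98.3 CPM in DMSO with TDP-43. It stood at 127, 283 and 563 CPM in C13 with sham and at 76.7, 64.9 and 122 CPM in DMSO with sham. Every C13 library was above every DMSO library within either arm. It was the 1 of 8 members to do so in each arm, against 6.02% of genes with aggregates and 5.13% with sham. How many genes did so in both arms was not counted.

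The log2 fold changes of nascent Tnfrsf1b for C13 against DMSO were 0.78 (SE 0.64) with aggregates and 1.88 (SE 0.66) with sham. Neither passed (edgeR adjusted p = 0.998 and 0.672), and an unadjusted p under 0.05 (0.0109 with sham) was found for 6.89% of genes with sham. The average of 1.33 (SE 0.46, edgeR unadjusted p = 0.0099, adjusted p = 0.801) did not pass either, in a comparison where 5.96% of genes had an unadjusted p under 0.05. Without C13 with sham replicate 3, whose 563 CPM was the highest value and which stood apart, the estimate with sham was 1.13. On the scale of total reads, nascent Tnfrsf1b averaged 6.86 ± 1.42 RPM in C13 with TDP-43 and 3.87 ± 2.59 in DMSO with TDP-43, and 6.31 ± 1.87 in C13 with sham and 3.86 ± 1.18 in DMSO with sham (SD, n = 3 each). On that scale both pairs overlapped.

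Total Tnfrsf1b stood at 56.1, 84.0 and 63.7 CPM in C13 with TDP-43, 56.2, 68.1 and 45.8 CPM in DMSO with TDP-43, 69.6, 76.4 and 81.6 CPM in C13 with sham, and 46.6, 74.1 and 54.6 CPM in DMSO with sham. All 4 pairs of groups overlapped.

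Tnfrsf1a, the receptor with the death domain, varied little in total RNA. It stood at 46.8, 51.3 and 49.2 CPM in C13 with TDP-43, 40.9, 52.2 and 34.9 CPM in DMSO with TDP-43, 50.3, 59.2 and 53.0 CPM in C13 with sham, and 47.1, 43.0 and 41.5 CPM in DMSO with sham. With sham, C13 was higher than DMSO without overlap in 1 of 8 members, which was Tnfrsf1a, against 4.41% of genes. The log2 fold change was 0.30 (SE 0.22, edgeR adjusted p = 0.911). Nascent Tnfrsf1a ran from 1.93 to 144 CPM within DMSO with TDP-43 alone, on 1 to 220 nascent reads over the 12 libraries, and all 4 pairs of groups overlapped.

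Adam17 stood at 860, 1048 and 682 CPM in total RNA of C13 with TDP-43, 805, 678 and 852 CPM in DMSO with TDP-43, 779, 786 and 556 CPM in C13 with sham, and 802, 988 and 803 CPM in DMSO with sham. Against DMSO, C13 with sham was lower without overlap in Adam17, the 1 of 8 members that was, against 5.72% of genes. The log2 fold change was -0.29 (SE 0.21, edgeR adjusted p = 0.902). Reads of Adam17 overlap on the opposite strand with Iah1 and Gm22766, and whether counting used the strand is not given in the sources used here.

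The nascent share of Adam17 was 1.24%, 1.94% and 1.61% in C13 with TDP-43, 1.81%, 2.24% and 2.34% in DMSO with TDP-43, 2.82%, 2.77% and 0.695% in C13 with sham, and 3.69%, 4.19% and 4.10% in DMSO with sham. It was lower without overlap in C13 than in DMSO with sham, as in 16.9% of genes, and lower in aggregates than in sham with DMSO, as in 11.6%. In each of these comparisons it was the 1 of 8 members that was, and the same held for its nascent RPM of total reads (16.6% and 12.1% of genes). Both are set against DMSO with sham, which held the library with the 7.11% share. The share of Adam17 in that library was 4.19%, beside 3.69% and 4.10% in the others of its group. Divided by the share of its library, Adam17 stood at 1.084, 0.589 and 1.494 in DMSO with sham and 0.8815, 0.9745 and 0.3689 in C13 with sham. In DMSO with TDP-43 it stood at 0.645, 0.6685 and 1.096. On this measure all 4 pairs overlapped, and the cause was not tested. Nascent Adam17 ran from 325 to 1201 CPM over the 12 libraries, and its groups overlapped in all 4 pairs.

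**Figure D4:**
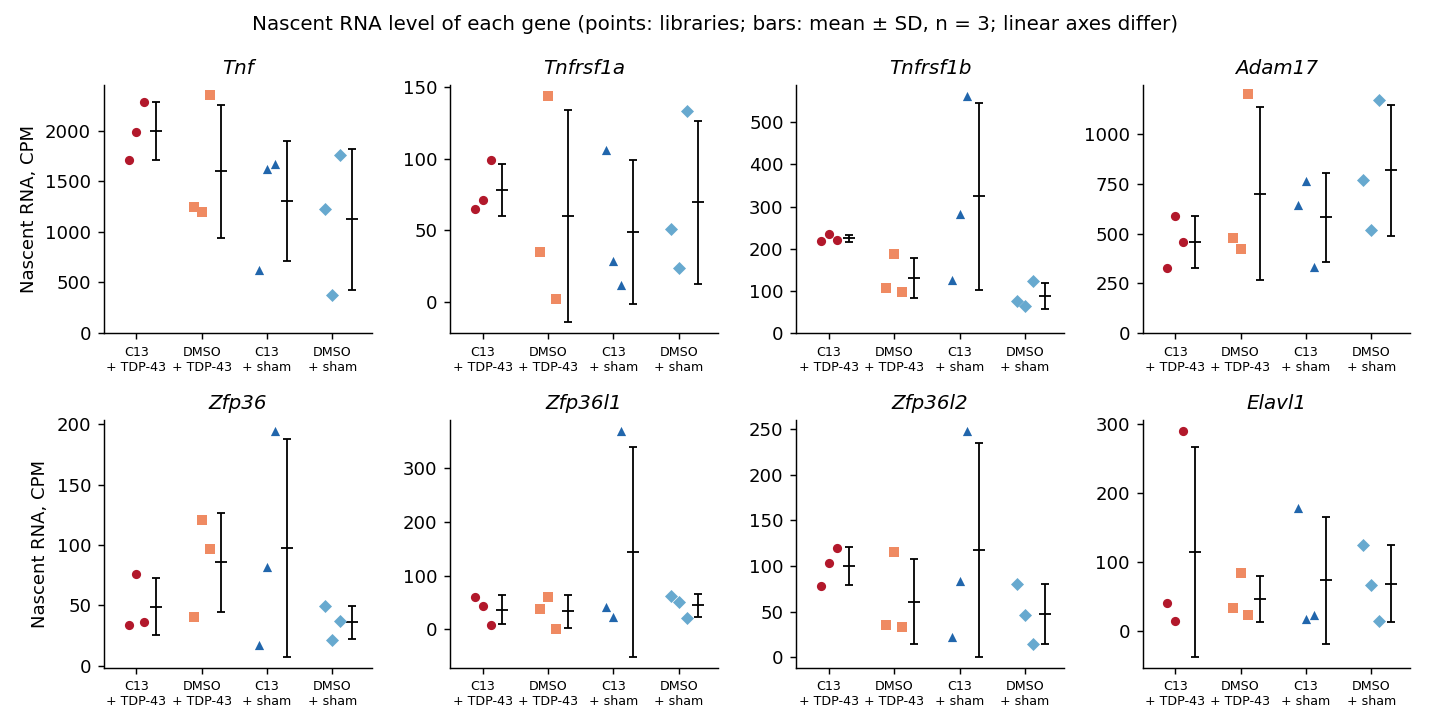
Nascent CPM (y axes, linear, a separate scale per gene) of the 8 genes in the 4 groups (x axes). Points are libraries and bars mean ± SD (n = 3): Tnfrsf1b in C13 lay above DMSO within either arm (219 to 234 against 98.3 to 187 CPM with aggregates, 127 to 563 against 64.9 to 122 CPM with sham), and no gene passed the test. How many other genes lay so in both arms was not counted.

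Zfp36, the gene of tristetraprolin, was low in total RNA and varied widely. It stood at 1.53, 7.38 and 2.38 CPM in C13 with TDP-43, 3.77, 8.47 and 3.90 CPM in DMSO with TDP-43, 1.73, 5.54 and 2.99 CPM in C13 with sham, and 3.04, 3.41 and 2.33 CPM in DMSO with sham. For aggregates against sham with DMSO, Zfp36 and Elavl1 were the 2 of 8 members higher without overlap, against 5.49% of genes. The log2 fold change of Zfp36 was 0.88 (SE 0.73, edgeR adjusted p = 0.999). Nascent Zfp36 ran from 16.9 to 194 CPM, and its groups overlapped in all 4 pairs. The antisense gene Gm44710 overlaps Zfp36 on the opposite strand, so their reads may not be told apart.

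Zfp36l1 and Zfp36l2 separated no pair of groups in nascent CPM, total CPM or nascent share. Total Zfp36l1 ran from 14.9 to 48.7 CPM, both ends within C13 with sham, and averaged 23.3 ± 7.04 CPM in C13 with TDP-43, 31.0 ± 2.26 CPM in DMSO with TDP-43, 26.3 ± 19.5 CPM in C13 with sham and 25.2 ± 5.63 CPM in DMSO with sham (SD, n = 3 each). Total Zfp36l2 ran from 13.7 to 44.8 CPM, again both within C13 with sham, and averaged 22.0 ± 6.60 CPM in C13 with TDP-43, 19.6 ± 0.737 CPM in DMSO with TDP-43, 26.9 ± 16.1 CPM in C13 with sham and 23.8 ± 4.78 CPM in DMSO with sham (SD, n = 3 each). The highest value of both genes was in C13 with sham replicate 3, in total RNA and in nascent RNA, where they reached 369 and 248 CPM. Both genes have an overlapping transcript on the opposite strand, Gm26669 for Zfp36l1 and AC132455.1 for Zfp36l2.

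Elavl1, which encodes HuR, was highest in cells with DMSO and aggregates. Total Elavl1 stood at 94.5, 119 and 120 CPM in C13 with TDP-43, 148, 144 and 182 CPM in DMSO with TDP-43, 139, 75.8 and 118 CPM in C13 with sham, and 109, 108 and 89.3 CPM in DMSO with sham. For C13 against DMSO with aggregates the groups did not overlap, with Elavl1 the 1 of 8 members lower, against 6.48% of genes. The log2 fold change was -0.51 (SE 0.23, edgeR unadjusted p = 0.0411, adjusted p = 0.833), where 5.98% of genes had an unadjusted p under 0.05.

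For aggregates against sham with DMSO, Elavl1 was higher without overlap by 0.63 on the log2 scale (SE 0.23, edgeR unadjusted p = 0.0144, adjusted p = 0.999), where 4.36% of genes had an unadjusted p under 0.05. Both comparisons rest on the same DMSO with TDP-43 libraries. Nascent Elavl1 ran from 14.6 to 290 CPM within C13 with TDP-43 alone. Its 12 nascent counts were all even, and Ccl25 overlaps it on the opposite strand.

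**Figure D5:**
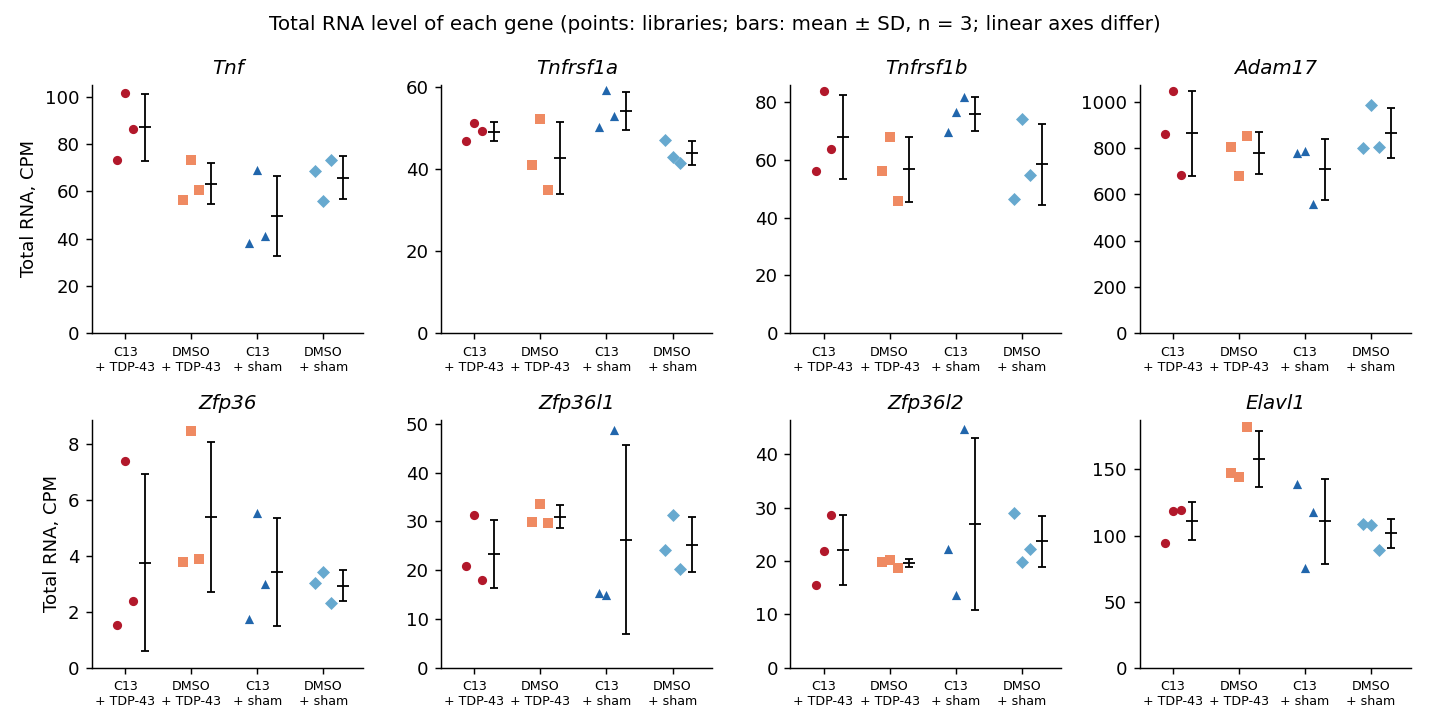
Total RNA in CPM (y axes, linear, a separate scale per gene) of the 8 genes in the 4 groups (x axes). Points are libraries and bars mean ± SD (n = 3): Tnf was 73.4 to 102 CPM in C13 with TDP-43 and 38.2 to 69.0 CPM in C13 with sham, and Elavl1 was 144 to 182 CPM in DMSO with TDP-43 and 89.3 to 109 CPM in DMSO with sham.

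Set against all genes, the members' counts were as follows. In nascent RNA 1 of 8 members, Tnfrsf1b, had an unadjusted p under 0.05 for C13 against DMSO with sham (6.89% of genes) and for C13 averaged (5.96%). No member did so for C13 with aggregates (4.59%), aggregates with C13 (8.45%), aggregates with DMSO (3.19%), aggregates averaged (5.59%) or the interaction (7.59%). In total RNA Elavl1 did for C13 with aggregates (5.98%), Tnf for aggregates with C13 (8.84%), Elavl1 for aggregates with DMSO (4.36%) and Tnf for the interaction (7.96%), each the 1 of 8. None did for C13 with sham (6.1%), C13 averaged (4.08%) or aggregates averaged (4.73%). In nascent against other reads 0 of 8 did in any of the 6 comparisons, where the share of genes ran from 2.66% to 5.71% and was 3.55% and 5.2% for C13 with aggregates and with sham, and 4.01% and 4.03% for the averages of C13 and of aggregates.

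Other reads, which are total minus nascent reads, separated some groups too. With DMSO, aggregates against sham had 3 of 8 members higher without overlap, against 7.05% of genes. These were Zfp36l1 (28.6, 31.4 and 29.6 RPM in DMSO with TDP-43, against 21.6, 27.3 and 19.7 RPM in DMSO with sham), Zfp36 (2.30 to 4.14 against 1.14 to 1.68 RPM) and Elavl1 (141 to 182 against 88.8 to 104 RPM). Elavl1 was also the 1 of 8 lower for C13 with aggregates (93.2 to 118 RPM in C13, against 141 to 182 RPM in DMSO), as were 7.7% of genes. With sham, Tnfrsf1a was the 1 of 8 higher in C13 than in DMSO (46.7 to 58.4 against 37.8 to 45.2 RPM, and 5.99% of genes), and Adam17 the 1 of 8 lower (552 to 764 against 770 to 946 RPM, and 4.11% of genes). No member was higher for C13 with aggregates (7.77%), higher (6.63%) or lower (7.35%) for aggregates with C13, or lower for aggregates with DMSO (5.26%).

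On the remaining scales, the members whose 3 libraries of a group all lay on one side of the other 3 are given above. In the other directions 0 of 8 members separated. These were, in nascent CPM, lower for C13 with aggregates (4.34% of genes), C13 with sham (9.14%) and aggregates with C13 (5.23%), and higher (3.74%) or lower (6.56%) for aggregates with DMSO. In total RNA they were lower for aggregates with C13 (6.07%) and with DMSO (6.41%). In nascent share they were higher (5.72%) or lower (3.09%) for C13 with aggregates, higher for C13 with sham (0.326%), higher (9.61%) or lower (2.24%) for aggregates with C13, and higher for aggregates with DMSO (0.582%). In nascent RPM of total reads they were lower for C13 with aggregates (3.36%) and aggregates with C13 (2.27%), and higher for C13 with sham (0.367%) and aggregates with DMSO (0.565%).

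Other genes of the pathway were taken from 5 lists, and 0 genes of any list passed edgeR's test in any comparison of either RNA. Among adaptors of the receptor complex and of cell death, such as Tradd and Ripk1, 18 of 19 genes in the table were tested in total RNA and 14 in nascent RNA. Their nascent shares had a median of 3.64%, close to the 3.04% of all genes. For aggregates against sham with C13, 10 were higher and 8 lower in total RNA. Their median was 0.04 on the log2 scale, against -0.01 over all genes tested, and none had an unadjusted p under 0.05. In nascent RNA 12 of 14 were higher for C13 against DMSO with aggregates (median 0.91, against 0.02 over all genes). With sham 6 were (-0.14, against -0.04). For aggregates against sham 7 were higher with C13 (0.31, against 0.04) and 3 with DMSO (-0.93, against -0.04). The medians of 0.91 and -0.93 both rest on the same DMSO with TDP-43 libraries. Replicate 3 of that group had the fewest genes with a nascent read (6599). The nascent share of some adaptors, such as Tradd and Tab1, fell to 0 in at least 1 library. In each pair Tab1 was the 1 of 14 with an unadjusted edgeR p under 0.05 (3.19% to 8.45% of genes). For C13 against DMSO its log2 fold change was 4.52 with aggregates and -4.22 with sham (SE 1.96 each). For aggregates against sham it was 4.25 with C13 and -4.49 with DMSO (SE 1.96 each). Its sign thus changed between pairs that share groups, and none passed (edgeR adjusted p of at least 0.572).

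Among other TNF superfamily ligands and receptors, 13 of 17 were tested in total RNA. For aggregates against sham with C13, 7 were higher and 6 lower (median 0.21, against -0.01 over all genes). An unadjusted edgeR p under 0.05 was found for 1 of 13 (8.84% of genes), which was Cd40. The costimulatory receptor gene Cd40 averaged 78.5 ± 10.1 CPM in C13 with TDP-43 and 39.9 ± 18.1 CPM in C13 with sham (SD, n = 3 each), which was 0.98 on the log2 scale (SE 0.33, edgeR unadjusted p = 0.0092, adjusted p = 0.508). Ltbr, the lymphotoxin β receptor gene, averaged 51.5 ± 6.78 CPM in C13 with TDP-43 and 33.4 ± 4.05 CPM in DMSO with TDP-43 (SD, n = 3 each). This was a log2 value of 0.62 (SE 0.23, edgeR adjusted p = 0.833), the 1 of 13 with an unadjusted p under 0.05 (5.98% of genes). For aggregates against sham with DMSO, Ltbr was again the 1 of 13 (4.36% of genes) but lower, at -0.66 (SE 0.23, edgeR adjusted p = 0.999). Both values of Ltbr rest on the same DMSO with TDP-43 libraries. Of 6 partners of shedding, 4 were tested in both RNAs and none had an unadjusted p under 0.05 in any pair of groups.

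AU-rich element binding and decay factors had a median nascent share of 2.76%, close to the 3.04% of all genes, and a highest value of 8.18%, for Zc3h12a. In total RNA 29 of 30 were tested. For C13 against DMSO with aggregates 9 were higher and 20 lower, where 49.6% of all genes were higher. The median log2 fold change was -0.26, against -0.00 over all genes tested. With sham 12 were higher and 17 lower (median -0.03, against -0.01). In nascent RNA 24 were tested, with 13 higher and 11 lower with aggregates (0.10, against 0.02). With sham 9 were higher and 15 lower (-0.17, against -0.04). For C13 against DMSO with aggregates in total RNA, 2 of 29 were higher and 2 lower with an edgeR unadjusted p under 0.05 (5.98% of genes). The higher ones were Rc3h2 at 0.47 (SE 0.20) and Hnrnpa0 at 0.58 (SE 0.27) on the log2 scale (edgeR adjusted p = 0.833 for both). Khsrp, which encodes an AU-rich element binding protein that promotes decay, was lower. It had the smallest unadjusted p of the list in this comparison. It stood at 81.8, 91.7 and 63.7 CPM in C13 with TDP-43 and at 154, 153 and 238 CPM in DMSO with TDP-43, a log2 fold change of -1.20 (SE 0.24, edgeR unadjusted p = 0.000142, adjusted p = 0.562). Its interaction was -1.57 (SE 0.33, edgeR unadjusted p = 0.000283, adjusted p = 0.183), where 7.96% of genes had an unadjusted p under 0.05. That of Rc3h2 was 0.93 (SE 0.29, edgeR adjusted p = 0.417).

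Transcripts described as targets of tristetraprolin ranged widely in nascent share, between 2.31% for Il1b and 47.2% for Ier3. Of 20, 11 were tested in nascent RNA, with a median share of 15.03%, against 3.04% over all genes. Odc1 (2.41%) and Il1b lay under that of all genes, and 3 exceeded 25%, as did 43 of 7046 genes (0.610%). These were Ier3 with 47.2% ± 9.91, the kinase gene Pim1 with 34.1% ± 8.21 and the chemokine gene Ccl4 with 32.3% ± 9.19 (SD, n = 12 each). In total RNA 15 were tested. For C13 against DMSO 3 were higher and 12 lower with aggregates (median log2 fold change -0.33, against -0.00 over all genes). With sham 6 were higher and 9 lower (-0.21, against -0.01). With aggregates 2 of 15 had an edgeR unadjusted p under 0.05, both lower (5.98% of genes). With sham 1 higher and 2 lower genes did (6.1% of genes). For aggregates against sham 9 were higher with C13 (median 0.08, against -0.01 over all genes) and 9 with DMSO (0.04, against -0.02). An edgeR unadjusted p under 0.05 was found for 2 of 15 with C13 (8.84% of genes) and 2 with DMSO (4.36%). Total Odc1 gave 0.80 with C13 (log2, SE 0.24, edgeR adjusted p = 0.448). Total Ccl4 gave 0.93 with DMSO (SE 0.36, edgeR adjusted p = 0.999). Total Cxcl2, compared between aggregates and sham, gave 0.64 with C13 (log2, SE 0.26, edgeR adjusted p = 0.541) and 0.81 with DMSO (SE 0.26, edgeR adjusted p = 0.999). It averaged 96.3 ± 27.4 CPM in C13 with TDP-43 and 61.7 ± 12.8 CPM in C13 with sham, and 134 ± 9.92 CPM in DMSO with TDP-43 and 76.2 ± 17.4 CPM in DMSO with sham (SD, n = 3 each).

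The genes whose total RNA was most like that of Tnf, by Pearson's r of log2 CPM over the 12 libraries among 11827 genes, were Aldh1l2 (r = 0.90), Mid1ip1 (r = 0.88), Slc11a2 (r = 0.88), Unc45a (r = 0.87) and Gnb3 (r = 0.87). The points share libraries and groups, so these are descriptions. Among the members, Adam17 and Zfp36 were most like Tnf (r = 0.40 and 0.38), and Zfp36l2 and Elavl1 least (r = -0.29 and -0.26). Those most like Zfp36 were Trmt2b (r = 0.85), Angel2 (r = 0.85), Adamts2 (r = 0.82), Manba (r = 0.82) and 2010013B24Rik (r = 0.81), of which Adamts2 and 2010013B24Rik, like Gnb3, averaged under 1 CPM.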

How the data were processed

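The authors deposited raw counts of nascent and of total reads per Ensembl gene, and these counts were used as deposited. Per the labels' protocols, RNA was treated with iodoacetamide and libraries were made from mRNA 3′ ends, so no length correction was applied. The submitters' processing notes name GRCm38 as the build. The aligner, the counter, its strand setting and the conversions needed for a nascent read were not given in the sources used here. Of 9932 genes that averaged over 50 total reads, 1917 had counts divisible by a common factor of at least 2.

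Samples were grouped by their labels, in which they are biological replicates with no culture or day named, so p-values measure the spread between these samples. Within groups, chi-square per degree of freedom between libraries was 67.6 to 314, so no library was a copy of another. Genes were kept by filterByExpr (7078 nascent, 11827 total), scaled by TMM within each table and fitted over all 12 libraries with edgeR 4.0.16 in R 4.3.3 by the quasi-likelihood test, with Benjamini-Hochberg adjustment and a threshold of 0.05. CPM uses TMM-scaled library sizes. Nascent and other (total minus nascent) counts were also fitted together, with library as a term. Shares have exact Clopper-Pearson intervals. Sequence searches used GENCODE M21. The tests were also run on simulated counts, which did not model the libraries that stood apart, and no result here rests on that run.

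The alternatives were DESeq2's size factors, DESeq2 1.42.0, no filter, a replicate block, only the groups compared, library sizes of the total table, and leaving out libraries. Counts divided by their common factor were added after seeing the data. Members, lists and the rule for naming genes were chosen with earlier results of these data known. That rule gave Tnf in every comparison, another member with an unadjusted p under 0.05 or groups without overlap, and at most 3 genes per list and comparison. Mff was named after its values were seen.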

Additional observations from a re-analysis of the deposited data

How the results depend on the processing

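No member was called under any of the 20 other settings. In the order C13 against DMSO with aggregates, the same with sham, aggregates against sham with C13, the same with DMSO, the averages of C13 and of aggregates, and the interaction, DESeq2 called 11, 29, 72, 7, 10, 9 and 48 genes in nascent and 30, 41, 98, 8, 16, 33 and 108 in total RNA. Without the filter edgeR called 10, 29, 30, 6, 11, 18 and 38 nascent and 33, 59, 124, 10, 18, 33 and 124 total genes, and 7, 12, 11, 2, 4 and 4 for nascent against other reads. Same-numbered libraries did not pair (correlations of deviations -0.03 to 0.06 in nascent and -0.03 to 0.13 in total RNA, 2 of 18 pairs over 0.1), and the replicate block gave 0 calls for aggregates averaged in nascent RNA, 2 for the total interaction and -0.0048 for total Tnf in C13 averaged (0.02 without it). With only the groups compared, 1 total gene was called for aggregates with C13. Without DMSO with TDP-43 replicate 3 and C13 with sham replicate 3, 1 was called there and 1 for aggregates averaged, and nascent Tnf in C13 against DMSO with sham was -0.06. With counts divided by their common factor, the total interaction had 2 calls. Total library sizes reversed nascent Tnf to -0.55 (C13 with sham) and -0.0822 (aggregates with DMSO).

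Leaving out 1 library at a time, or the 2 that stood apart together, calls ran from 0 to 1 (nascent aggregates with C13 and averaged; total aggregates averaged; nascent against other reads in aggregates with either drug and both averages), 0 to 2 (total C13 with sham, aggregates with C13, C13 averaged) or 0 to 3 (total interaction). Tnf changed sign in nascent C13 against DMSO with sham (-0.28 to 0.70) and interaction (-0.38 to 0.78), in total aggregates with DMSO (-0.17 to 0.0265) and C13 averaged (-0.14 to 0.10), and in nascent against other reads for C13 with aggregates (-0.20 to 0.56), with sham (-0.21 to 1.03) and averaged (-0.0097 to 0.61). The cause was not tested where none is given. Total Tnf for aggregates with C13 kept its direction, from 0.66 without C13 with sham replicate 1 to 1.13 without replicate 2. Nascent depth was low for several members, with a median of 27 reads per library for Elavl1, 36.5 for Zfp36l1, 48 for Zfp36 and 62.5 for Tnfrsf1a.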
